A study of Caenorhabditis elegans with 16 samples.

Results

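The response described here is the part of the transcriptional answer to tunicamycin (TM) that wild-type N2 Caenorhabditis elegans shared between exposure as embryos and exposure at the L4 larval stage. Of the 46589 genes in the deposited table, 13856 had a mean of at least 1 FPKM over all 16 libraries and were tested in a single model of the 4 groups. FPKM is the number of fragments on a gene scaled for its length and for library size. The effect of TM at each stage is a difference of mean log2(FPKM + 1), called a log2 fold change below, and the rule of the selection averages the effects of the 2 stages. A gene counts as moved the same way at both stages when both effects had the same sign and the larger of the 2 stage p-values passed limma's test after Benjamini-Hochberg adjustment over all 13856 genes at 0.05. There were 2140 such genes, with 1240 higher and 900 lower in TM.

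In EMBRYO TM, embryos released by bleaching were kept in S Medium with 1.25 μg/ml TM for 24 h, and in L4 TM, worms raised on plates to L4 were given the same dose for the same time. EMBRYO CNT and L4 CNT are the matched controls, for which no vehicle is named here. The worms of the EMBRYO groups were moved to plates afterwards and grown to adulthood before RNA was taken. The paper places the L4 treatment between L4 and the first day of adulthood, and the RNA of all groups at that day. The time from exposure to RNA thus differed between stages, and its part in the effects was not tested. Each group has 4 libraries of polyadenylated RNA from whole worms, each from a separate plate, so a value is a mean over a population and over all tissues.

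Tunicamycin blocks the first step in the assembly of the sugar chain that is attached to proteins in the endoplasmic reticulum (ER), and proteins that should carry N-linked sugars then fold poorly. The unfolded protein response (UPR) reads this through the sensors IRE-1, PEK-1 and ATF-6. IRE-1 splices xbp-1 mRNA, PEK-1 slows translation and favours that of ATF-4, and ATF-6 is cleaved to a transcription factor. Together they raise chaperones, the machinery for secretion and the degradation of misfolded proteins.

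The libraries held 12361026 to 47193068 reads on genes. L4 TM replicate 4 was the deepest, with 0.702% of the genes it detected resting on 1 read, where that share was 8.97% to 10.9% elsewhere. It also detected the fewest genes, 15377, against 17539 to 21833 in the other libraries. L4 TM replicate 4, L4 CNT replicate 2 and EMBRYO TM replicate 4 correlated least with the other libraries of their groups, at a mean r of 0.971, 0.983 and 0.961. Without the first 2 of these, an alternative chosen after the data were seen, 1528 genes were higher and 1009 lower at both stages. Levels of adult markers differed among groups that the paper describes as Day 1 adults. The deposited table heads its group means L1 and D1 where the labels say EMBRYO and L4. The yolk protein gene vit-4 had 428, 496, 605 and 219.9 FPKM in EMBRYO TM, against 2.05, 1.47, 0.972 and 1.22 FPKM in EMBRYO CNT. It had 1178, 1095, 1195 and 1016 FPKM in L4 TM, against 1176, 1085, 1013 and 1276 FPKM in L4 CNT. The near-absence in EMBRYO CNT was shared by vit-1 and vit-3, with means of 4.22 and 3.87 FPKM there, while vit-2, vit-5 and vit-6 had means of 3001, 554 and 852 FPKM in EMBRYO CNT. The copies are similar in sequence, so reads may be shared between them. Whether the worms of EMBRYO TM and EMBRYO CNT had reached the same stage was not tested.

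The shared response was broad and mostly small. Among all genes tested, 8.95% were higher and 6.5% lower at both stages, against 387 genes that passed at both stages in opposite directions. The genes higher at both stages had a median log2 fold change of 0.51 in EMBRYO and 0.40 in L4, and those lower at both had medians of -0.88 and -0.70, where the medians of all genes tested were 0.00 and 0.02. A change of more than 2-fold at each stage was found for 46 higher genes (0.332% of those tested) and 107 lower genes (0.772%). Over all genes tested the effects of the 2 stages had the same sign for 9548 genes (68.9%), with a Pearson r of 0.33 and a Spearman rho of 0.44 across genes, which are not independent of each other. The balance of directions depended on the scaling. It was 794 higher and 833 lower after rescaling to TPM, and 1916 higher and 719 lower after centring each library on its median, which raised the median L4 effect of all genes to 0.12 on the log2 scale.

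**Figure D1:**
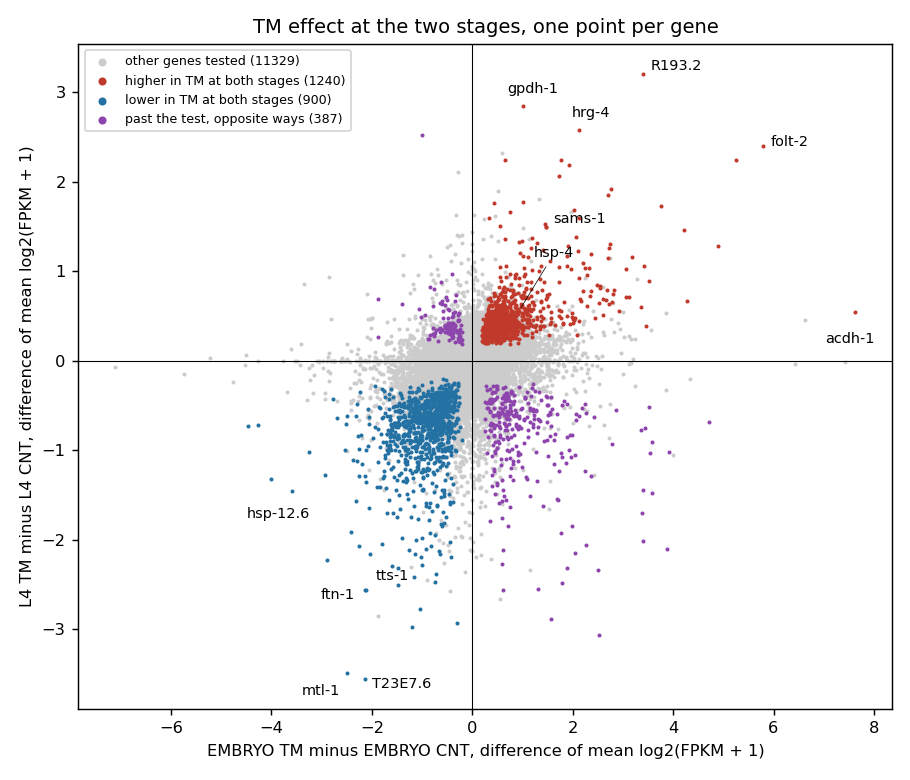
TM effect in EMBRYO (horizontal) and in L4 (vertical), each as a difference of mean log2(FPKM + 1), with one point per gene tested. The 1240 genes higher at both stages lie in the upper right, the 900 lower at both in the lower left, and the 387 that passed in opposite directions in the other corners; R193.2 and folt-2 are far out among the higher genes, and mtl-1 and T23E7.6 among the lower ones.

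The effects of the 2 stages were not always of the same size. The difference between them passed the test for 4052 of all genes (29.2%), of which 3139 had the larger effect in EMBRYO and 913 in L4. It did so for 266 of the 1240 higher genes (21.5%), of which 255 had the larger effect in EMBRYO and 11 in L4. It did so for 292 of the 900 lower genes (32.4%), of which 210 had the larger effect in EMBRYO and 82 in L4. The widest gap among the shared genes named here was in acdh-1, the short-chain acyl-CoA dehydrogenase of the propionate shunt, with log2 fold changes of 7.63 and 0.54.

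Genes that handle folate, methionine and cysteine were among those with the largest shared increases. The methionine cycle takes methyl groups from folate to make methionine, and S-adenosylmethionine from it serves as the methyl donor of the cell. folt-2 (F37B4.7, chromosome V, 2872465 to 2875600), a folate transporter family gene, had 84.2, 85.4, 76.9 and 96.6 FPKM in EMBRYO TM, against 0.763, 0.649, 0.479 and 0.415 FPKM in EMBRYO CNT. It had 62.2, 60.1, 62.5 and 65.3 FPKM in L4 TM, against 10.997, 10.04, 11.9 and 11.1 FPKM in L4 CNT. Every TM library was above every control library, and folt-2 was nearly silent in EMBRYO CNT only. Its log2 fold changes were 5.78 in EMBRYO and 2.40 in L4 (standard error 0.09 at each stage, adjusted p = 1.73e-10).

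sams-1 (C49F5.1, chromosome X, 11965962 to 11968109) encodes an S-adenosylmethionine synthetase and had 143, 172, 178 and 111 FPKM in EMBRYO TM, against 54.7, 60.2, 49.1 and 49.9 FPKM in EMBRYO CNT. It had 113, 109, 113 and 129.9 FPKM in L4 TM, against 41.5, 44.4, 37.9 and 39.1 FPKM in L4 CNT. The groups did not overlap, and the increase was of like size at both stages, at 1.46 in EMBRYO and 1.49 in L4 (standard error 0.12 at each stage, adjusted p = 1.49e-06), with a difference between stages of 0.03 (standard error 0.18, adjusted p = 0.928). cth-1 (F22B8.6, chromosome V, 16100655 to 16102744), a cystathionine gamma-lyase that makes cysteine, had 20.6, 18.6, 16.46 and 20.3 FPKM in EMBRYO TM, against 3.68, 3.12, 4.49 and 3.74 FPKM in EMBRYO CNT, and 13.1, 13.4, 13.9 and 16.9 FPKM in L4 TM, against 4.30, 5.51, 4.69 and 4.98 FPKM in L4 CNT. Its control levels were close to each other and its TM levels were all higher, with log2 fold changes of 2.07 in EMBRYO and 1.38 in L4 (standard error 0.11 at each stage, adjusted p = 6.20e-07).

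Of 25 genes tested on the list for amino acids, folate and methionine, 11 were higher and 1 was lower at both stages, beside 8.95% and 6.5% of all genes, and the list medians were 0.46 in EMBRYO and 0.38 in L4. Apart from those 3, the higher members were sams-3 (1.19 and 0.66) and sams-4 (0.36 and 0.34), 2 further S-adenosylmethionine synthetases whose sequences are alike, metr-1 (1.29 and 0.47), the methionine synthase, mtrr-1 (1.105 and 0.42), its reductase, and mthf-1 (1.21 and 0.38), the methylenetetrahydrofolate reductase that feeds it. mel-32 (1.12 and 0.46) is a serine hydroxymethyltransferase that charges folate, sesn-1 (0.46 and 0.64) is the sestrin gene, and pmt-2 (1.16 and 0.40) a methyltransferase of phosphocholine synthesis. These were named after their values were seen. The lower member was pmt-1, which carries out the first methylation of that pathway, at -1.098 and -0.67 (adjusted p = 0.000182). pmt-1 and pmt-2 thus moved in opposite directions at each stage. nhr-114, a nuclear hormone receptor, was higher at both stages, at 1.74 in EMBRYO and 0.88 in L4 (standard error 0.12 at each stage, adjusted p = 0.000103).

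**Figure D2:**
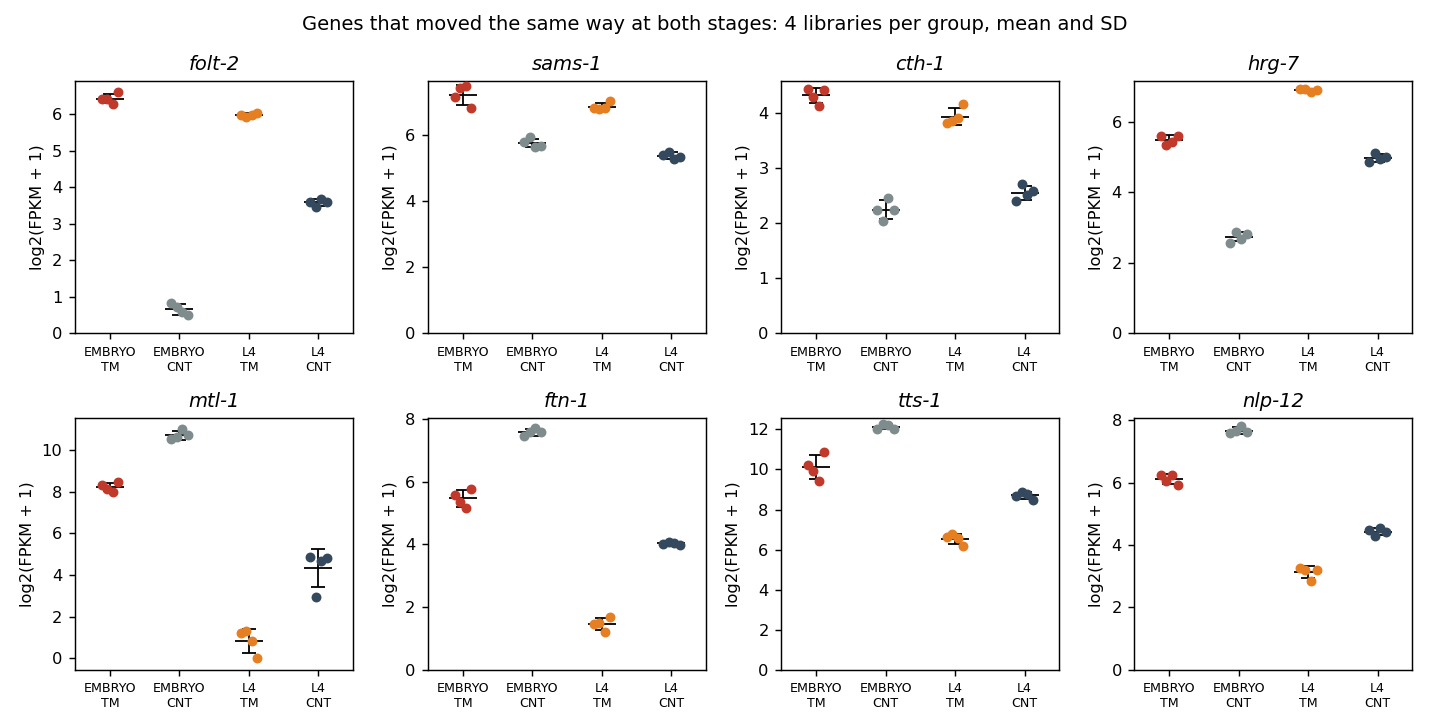
Level of 8 genes as log2(FPKM + 1) in the 4 libraries of each group, with the group mean and SD as black bars. In the upper row (folt-2, sams-1, cth-1, hrg-7) all TM libraries lie above the control libraries of their stage, and in the lower row (mtl-1, ftn-1, tts-1, nlp-12) all lie below.

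Heme and metal genes moved in both directions. C. elegans cannot make heme and takes it up from its food, and the hrg genes respond to heme supply. hrg-4 (F36H1.5, chromosome IV, 11030160 to 11031082), a heme importer of the intestine, had 6.09, 4.74, 2.94 and 7.14 FPKM in EMBRYO TM, against 0.368, 0.329, 0.680 and 0.182 FPKM in EMBRYO CNT, and 12.17, 13.4, 12.28 and 11.2 FPKM in L4 TM, against 1.09, 0.922, 1.62 and 1.29 FPKM in L4 CNT. All 8 TM libraries were above all 8 control libraries, and the log2 fold changes were 2.12 in EMBRYO and 2.58 in L4 (standard error 0.18 at each stage, adjusted p = 1.85e-06). hrg-7 (C15C8.3, chromosome V, 12742039 to 12744170), a secreted protein that signals heme state between tissues, had 47.7, 39.4, 41.7 and 47.7 FPKM in EMBRYO TM, against 4.93, 6.23, 5.41 and 6.08 FPKM in EMBRYO CNT, and 120.5, 120.2, 113.6 and 118 FPKM in L4 TM, against 27.7, 33.7, 29.5 and 31.02 FPKM in L4 CNT. Its TM and control libraries were apart at both stages, by 2.76 in EMBRYO and 1.92 in L4 (standard error 0.09 at each stage, adjusted p = 2.44e-09). hrg-3 (0.93 and 1.33) and hrg-6 (0.52 and 0.57), named after their values were seen, were also higher.

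ftn-1 (C54F6.14, chromosome V, 7545974 to 7548012), a ferritin that stores iron, had 46.4, 39.9, 35.1 and 53.9 FPKM in EMBRYO TM, against 174, 191, 209.5 and 190.1 FPKM in EMBRYO CNT, and 1.75, 1.83, 1.31 and 2.23 FPKM in L4 TM, against 15.3, 15.8, 15.4 and 14.9 FPKM in L4 CNT. Every TM library was below every control library of its stage, with log2 fold changes of -2.11 in EMBRYO and -2.57 in L4 (standard error 0.12 at each stage, adjusted p = 1.89e-08). mtl-1 (K11G9.6, chromosome V, 6691369 to 6691863), a metallothionein, had 316, 281, 253 and 349.6 FPKM in EMBRYO TM, against 1469, 1563, 2061 and 1721 FPKM in EMBRYO CNT, and 1.34, 1.46, 0.766 and 0 FPKM in L4 TM, against 27.9, 6.72, 24.8 and 26.9 FPKM in L4 CNT. L4 CNT replicate 2 stood well below the other L4 CNT libraries and L4 TM replicate 4 was listed at 0, but the groups did not overlap. The log2 fold changes of mtl-1 were -2.50 in EMBRYO and -3.49 in L4 (standard error 0.36 at each stage, adjusted p = 0.000187). In all, 4 of 21 listed metal and heme genes were higher and 2 lower at both stages, beside 8.95% and 6.5% of all genes. The list medians were 0.00 and -0.14.

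The gene with the largest weaker stage effect, meaning the smaller in size of its 2 log2 fold changes, was R193.2 (chromosome X, 1132999 to 1148343), to which no role is given here. It had 12.5, 14.3, 16.8 and 6.61 FPKM in EMBRYO TM, against 0.227, 0.252, 0.232 and 0.193 FPKM in EMBRYO CNT, and 15.01, 15.4, 16.23 and 17.9 FPKM in L4 TM, against 0.731, 1.08, 0.842 and 0.787 FPKM in L4 CNT. EMBRYO TM replicate 4 was lowest of the TM libraries and still far above all controls, and the log2 fold changes were 3.40 in EMBRYO and 3.20 in L4 (standard error 0.19 at each stage, adjusted p = 2.26e-08). The other 11 genes with the largest weaker effects and no overlap of libraries, after folt-2, hrg-4 and hrg-7, were T05E12.6 (5.26 and 2.25), pgph-3 (1.93 and 2.19), a phosphoglycolate phosphatase homologue, abhd-3.2 (2.70 and 1.86), of a hydrolase family, F22E5.1 (1.77 and 2.24), pmp-5 (3.75 and 1.73), an ABC transporter of the peroxisomal type, Y48E1B.8 (1.72 and 2.07), the pseudogene Y39B6A.21 (2.04 and 1.69) and C45E5.1 (2.12 and 1.60). Several of these had under 1 FPKM in EMBRYO CNT, where the pseudocount of 1 understates the change. On the peroxisome list, which holds pmp-5, 2 of 20 genes were higher and 0 lower, beside 8.95% and 6.5% of all genes. In opposite directions passed 7 of them, and the list medians were 0.36 in EMBRYO and -0.54 in L4.

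Further increases of more than 2-fold at each stage were found for elo-5, an elongase of branched-chain fatty acids, at 3.18 and 1.17, for the infection response gene irg-8 at 4.89 and 1.28 and for ugt-12, a UDP-glucuronosyltransferase, at 1.55 and 1.11. gpdh-1, a glycerol-3-phosphate dehydrogenase that serves glycerol production, had 3.33, 4.59, 3.25 and 2.15 FPKM in EMBRYO TM, against 1.44, 1.42, 0.991 and 0.711 FPKM in EMBRYO CNT. It had 64.2, 67.3, 63.8 and 55.6 FPKM in L4 TM, against 8.59, 6.18, 8.83 and 7.999 FPKM in L4 CNT. Its libraries did not overlap at either stage, and its change was larger in L4, at 1.003 in EMBRYO and 2.85 in L4, a difference of 1.84 (standard error 0.23, adjusted p = 1.47e-05). On its list, the osmotic response, 2 of 15 genes were higher and 2 lower (tre-5 and tps-1), beside 8.95% and 6.5% of all genes. The list medians were 0.09 in EMBRYO and -0.01 in L4.

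The largest shared decreases were in genes of varied kinds. After mtl-1 and ftn-1, T23E7.6 (no role given here) had 12.8, 12.19, 10.3 and 15.2 FPKM in EMBRYO TM, against 55.1, 53.0, 64.6 and 63.4 FPKM in EMBRYO CNT, and 4.53, 5.72, 7.11 and 3.95 FPKM in L4 TM, against 72.03, 86.6, 62.1 and 69.3 FPKM in L4 CNT. The groups were apart at both stages, with log2 fold changes of -2.14 in EMBRYO and -3.55 in L4 (standard error 0.15 at each stage, adjusted p = 1.74e-07). tts-1 (F09E10.11, chromosome X, 1504131 to 1504841) is a long noncoding RNA that is abundant in dauer larvae and long-lived daf-2 mutants. It had 1178, 975, 695 and 1863 FPKM in EMBRYO TM, against 4221, 4963, 4776 and 4148 FPKM in EMBRYO CNT, and 99.1, 109, 93.7 and 71.8 FPKM in L4 TM, against 407, 469, 431 and 361 FPKM in L4 CNT. Levels were far higher in the EMBRYO groups, and TM libraries lay below the controls of each stage, at -2.03 in EMBRYO and -2.16 in L4 (standard error 0.22 at each stage, adjusted p = 1.52e-05).

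far-7, a fatty acid and retinol binding protein, had log2 fold changes of -2.25 in EMBRYO and -2.08 in L4 (standard error 0.18 at each stage, adjusted p = 1.85e-06). The rest of the 12 lower genes chosen in the same way were fipr-22 (-2.13 and -2.56), of a family of small peptides with similar copies whose reads may be shared, C54F6.5 (-2.41 and -1.92), F47B8.4 (-1.79 and -2.05), K01A2.10 (-1.70 and -1.71), C08E3.13 (-2.05 and -1.64), F45D3.4 (-1.60 and -2.297) and ZC443.3 (-1.57 and -1.70). The call for C54F6.5 was lost when each stage was fitted alone, with an adjusted p of 0.0544. Of 15 cytosolic heat shock genes, 2 were lower at both stages, the small heat shock genes hsp-12.6 and hsp-12.3, and 2 were higher. Among all genes 6.5% were lower and 8.95% higher. The list medians were 0.48 in EMBRYO and -0.03 in L4. hsp-12.6 had 59.005, 55.7, 35.1 and 92.7 FPKM in EMBRYO TM, against 601, 716, 784 and 701 FPKM in EMBRYO CNT, and 0.413, 1.35, 0.789 and 3.45 FPKM in L4 TM, against 4.43, 7.14, 5.44 and 4.28 FPKM in L4 CNT. Its levels were high in EMBRYO CNT and low in both L4 groups, and the log2 fold changes were -3.58 in EMBRYO and -1.46 in L4 (standard error 0.31 at each stage, adjusted p = 0.00369), beside -2.93 and -1.27 for hsp-12.3. The higher genes were hsp-110 (0.80 and 0.65) and dnj-13 (0.48 and 0.38), and 4 were higher without L4 TM replicate 4.

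Of the 15 UPR sensors and hallmark targets, 2 were higher at both stages and none was lower, beside 8.95% and 6.5% of all genes. Medians over these 15 were 0.20 in EMBRYO and 0.23 in L4, where those of all genes tested were 0.00 and 0.02. hsp-4 (F43E2.8, chromosome II, 7350119 to 7352518), the inducible BiP chaperone of the ER, had 148, 144, 151 and 133 FPKM in EMBRYO TM, against 82.3, 69.7, 66.7 and 81.8 FPKM in EMBRYO CNT, and 204, 191, 202 and 171 FPKM in L4 TM, against 128, 125.7, 129 and 135 FPKM in L4 CNT. All TM libraries were above the controls of their stage. The log2 fold changes were 0.93 in EMBRYO and 0.56 in L4 (standard error 0.08 at each stage, adjusted p = 0.000256), and the EMBRYO effect was the larger, with a difference of -0.37 (standard error 0.12, adjusted p = 0.0252). pdi-6, a protein disulfide isomerase, had 126.4, 119.5, 130.2 and 115 FPKM in EMBRYO TM, against 72.6, 70.9, 71.6 and 71.2 FPKM in EMBRYO CNT, and 129, 124, 123 and 135 FPKM in L4 TM, against 106, 89.8, 106 and 103 FPKM in L4 CNT. Again there was no overlap, and the changes were 0.77 in EMBRYO and 0.33 in L4 (standard error 0.07 at each stage, adjusted p = 0.00312).

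The other 13 did not pass at both stages. hsp-3, the second BiP gene, was at 0.68 and 0.33 (adjusted p = 0.181 for both stages), atf-4 at 0.93 and 0.18 (0.323), dnj-7 at 0.74 and 0.12 (0.379) and manf-1 at 0.37 and 0.21 (0.249). Close to the threshold were ire-1 at 0.18 and 0.31 (0.0591), the oxidoreductase ero-1 at 0.29 and 0.19 (0.0613), the Hsp90 chaperone enpl-1 at 0.20 and 0.24 (0.0617) and pek-1 at -0.20 and -0.52 (0.0578). ire-1, enpl-1 and pek-1 passed without L4 TM replicate 4, and pek-1 was lower in TM, so that 4 of the 15 were then higher and 1 lower. pek-1 was also called lower at both stages under TPM and median-ratio rescaling and without EMBRYO CNT replicate 3. Under median centring 5 were higher. The lectin chaperones crt-1 and cnx-1 were at 0.16 and 0.13 and at -0.17 and 0.28, and dnj-27 at -0.34 and 0.27. The gene of the sensor atf-6 had 10.2, 11.98, 11.5 and 9.48 FPKM in EMBRYO TM, against 16.7, 16.8, 16.198 and 16.7 FPKM in EMBRYO CNT, and 4.51, 5.38, 5.75 and 5.93 FPKM in L4 TM, against 4.40, 4.50, 4.26 and 4.59 FPKM in L4 CNT. It was lower in TM in EMBRYO and higher in L4 by value, at -0.58 and 0.23, and the difference between stages passed the test, at 0.81 (standard error 0.12, adjusted p = 9.50e-05). Total xbp-1, in which the spliced and unspliced forms cannot be told apart here, was at 0.08 and -0.35, with a difference of -0.43 (standard error 0.09, adjusted p = 0.00167). The target of TM itself, the gene algn-7, was at 0.22 and 0.26 (adjusted p = 0.162).

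**Figure D3:**
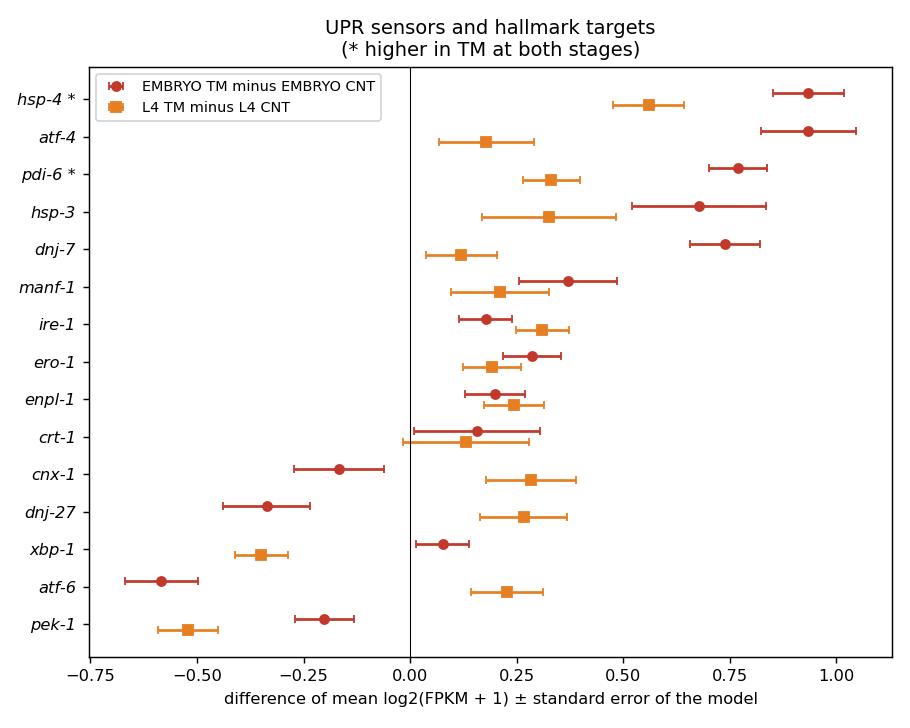
TM effect for the 15 UPR sensors and hallmark targets in EMBRYO (circles) and L4 (squares), as the difference of mean log2(FPKM + 1) with the standard error of the model. Stars mark hsp-4 and pdi-6, which were higher at both stages, while atf-6, dnj-27, cnx-1 and xbp-1 lie on opposite sides of 0 at the 2 stages.

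In the wider secretory pathway, the listed genes that moved the same way at both stages were all higher in TM. Of 29 genes for translocation into and exit from the ER, 12 were higher and none lower, with medians of 0.46 and 0.28. Among all genes 8.95% were higher and 6.5% lower at both stages. sec-61.B, the beta subunit of the translocon, had 178, 206, 233 and 189 FPKM in EMBRYO TM, against 83.5, 74.1, 84.0 and 83.4 FPKM in EMBRYO CNT, and 323, 339.6, 303 and 325 FPKM in L4 TM, against 225, 129, 216 and 205 FPKM in L4 CNT. L4 CNT replicate 2 was the lowest of its group, the libraries did not overlap, and the changes were 1.29 in EMBRYO and 0.77 in L4 (standard error 0.14 at each stage, adjusted p = 0.00143). sec-61.A (1.05 and 0.70), the pore subunit, and trap-1 (1.17 and 0.55) and trap-2 (0.92 and 0.54) of the translocon-associated complex rose with it. Of 26 ER folding genes, 7 were higher and none lower (medians 0.33 and 0.25), among them fkb-5 (1.09 and 0.51), a prolyl isomerase, T14G8.3 (0.73 and 0.44), an Hsp70 family chaperone, and dnj-20 (0.44 and 0.37), a J-domain co-chaperone. The fkb-5 and trap-2 calls were lost in 17 and 6 of 28 alternatives, and 11 folding genes were higher under median centring.

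Of 29 N-glycosylation genes, 4 were higher and none lower, with medians of 0.23 and 0.23, where 8.95% of all genes were higher. The count was 2 under TPM rescaling and 11 under median centring. These were ostb-1 (0.65 and 0.60) and ribo-1 (0.38 and 0.38), both subunits of the oligosaccharyltransferase that transfers the sugar chain, gfat-2 (0.53 and 0.46), which starts the synthesis of the amino sugars, and algn-5 (0.40 and 0.37), whose call was lost in 19 of 28 alternatives. ostb-1 had 111, 101, 106 and 122 FPKM in EMBRYO TM, against 69.0, 70.6, 63.0 and 76.2 FPKM in EMBRYO CNT, and 175, 173, 179.9 and 199 FPKM in L4 TM, against 115, 125, 119.9 and 117 FPKM in L4 CNT. Its libraries did not overlap at either stage, at 0.65 in EMBRYO and 0.60 in L4 (standard error 0.08 at each stage, adjusted p = 6.36e-05). Of 20 genes for ER-associated degradation, 7 were higher and none lower (medians 0.24 and 0.24), among them the p97 ATPase genes cdc-48.1 (0.53 and 0.51) and cdc-48.2 (0.73 and 0.46), rad-23 (0.59 and 0.46), which brings substrates to the proteasome, and ufd-1 (0.36 and 0.32), a cofactor of p97. The count was 4 without L4 TM replicate 4 and 3 under TPM rescaling, and the ufd-1 call was lost in 5 of 28 alternatives. The p97 copies are alike in sequence, so reads may be shared between them.

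Proteasome genes that moved at both stages were all higher in TM. The list had 15 of 33 genes higher and none lower, beside 8.95% and 6.5% of all genes. It had an effect above 0 at both stages for all 33. Its medians were 0.46 in EMBRYO and 0.27 in L4. rpn-5, a subunit of the proteasome lid, had 113.5, 106, 107 and 111 FPKM in EMBRYO TM, against 78.6, 68.7, 66.4 and 82.5 FPKM in EMBRYO CNT, and 207, 205, 210.1 and 238 FPKM in L4 TM, against 156, 158, 153 and 156 FPKM in L4 CNT. All TM libraries were above the controls, with changes of 0.56 in EMBRYO and 0.46 in L4 (standard error 0.08 at each stage, adjusted p = 0.000589). rpn-3 (0.49 and 0.41), rpt-1 (0.53 and 0.38) and rpn-2 (0.53 and 0.36) followed, the last with its call lost in 9 of 28 alternatives. The count was 9 after rescaling to TPM and 22 after median centring.

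Aminoacyl-tRNA synthetases, which load amino acids on tRNA, had 12 of 31 genes higher and none lower (medians 0.37 and 0.29). Among all genes 8.95% were higher and 6.5% lower at both stages. gars-1 for glycine had 60.3, 64.3, 65.1 and 58.0 FPKM in EMBRYO TM, against 36.6, 33.5, 31.5 and 36.4 FPKM in EMBRYO CNT, and 103, 102, 99.4 and 114.1 FPKM in L4 TM, against 73.2, 80.1, 73.9 and 72.6 FPKM in L4 CNT. It was higher in every TM library, by 0.83 in EMBRYO and 0.48 in L4 (standard error 0.07 at each stage, adjusted p = 0.000228). fars-1 (0.79 and 0.47), iars-2 (0.52 and 0.43) and ears-1 (0.44 and 0.39) were the next. Ribosomal protein genes stood as follows. None of 81 cytosolic ribosomal protein genes moved at both stages by limma or by voom on recovered reads, with 1 lower at an unadjusted p under 0.05 at each stage (medians 0.01 and 0.07), and 10 of 69 mitochondrial ones were higher and none lower, of which mrps-31 (0.33 and 0.39) and mrpl-30 (0.38 and 0.34) are examples. The mrpl-30 call was lost in 17 of 28 alternatives, and the count of mitochondrial genes was 1 under TPM rescaling, 5 under median-ratio rescaling and 16 under median centring. Of 61 genes of oxidative phosphorylation, 2 were higher, sdha-2 (0.93 and 0.43) and nduf-9 (0.23 and 0.27), the second of which lost its call in 15 of 28 alternatives. On the list for the mitochondrial UPR, hsp-60 (1.23 and 0.62), lonp-1 (0.77 and 0.34) and dnj-10 (0.31 and 0.32) were higher, 3 of 14. Among all genes 8.95% were higher. The hsp-60 call was lost in 6 of 28 alternatives, while hsp-6 was at 0.03 and 0.37 and did not pass (adjusted p = 0.951).

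**Figure D4:**
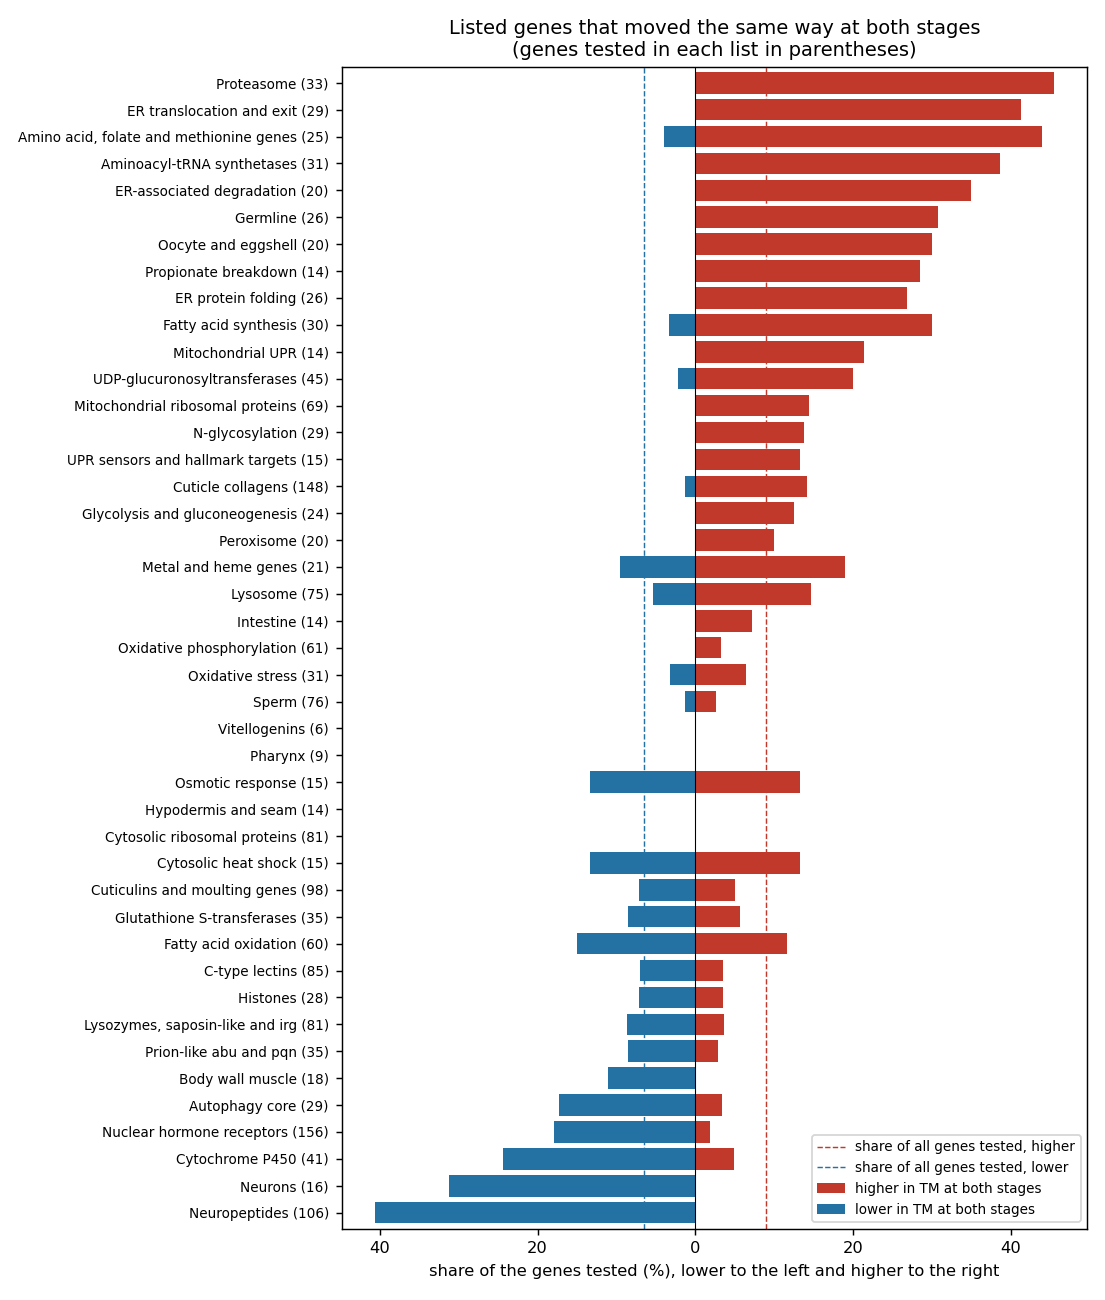
Share of the genes tested in each of 43 lists that were higher (right) or lower (left) in TM at both stages, with the number tested in parentheses. Dashed lines mark the share among all 13856 genes, 8.95% higher and 6.5% lower; the proteasome list reaches furthest to the right and the neuropeptide list furthest to the left.

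Fat and propionate metabolism held genes that rose, genes that fell and genes that went opposite ways. Of 30 fatty acid synthesis genes, 9 were higher and 1 was lower, beside 8.95% and 6.5% of all genes, and 6 passed in opposite directions. The list medians were 0.50 in EMBRYO and -0.04 in L4. elo-5, elo-6 (3.06 and 0.71), elo-9 (0.99 and 0.70) and elo-3 (0.98 and 0.62) led, all elongases. The lower gene was the desaturase fat-6 (-0.48 and -0.84), named after its value was seen. Of 60 fatty acid oxidation genes, 7 were higher, 9 were lower and 11 went opposite ways, with 12 higher under median centring. The medians of this list were 0.49 in EMBRYO and -0.20 in L4. acs-7, an acyl-CoA synthetase, had 16.9, 15.7, 13.4 and 20.7 FPKM in EMBRYO TM, against 34.7, 37.5, 38.02 and 39.1 FPKM in EMBRYO CNT, and 33.4, 35.5, 35.4 and 44.3 FPKM in L4 TM, against 142, 189, 145 and 137 FPKM in L4 CNT. Every TM library was below its controls, with changes of -1.13 in EMBRYO and -2.01 in L4 (standard error 0.13 at each stage, adjusted p = 2.10e-05). acox-3, an acyl-CoA oxidase, was lower (-0.63 and -1.82), as were acdh-10 (-0.75 and -0.84), an acyl-CoA dehydrogenase, and acs-16 (-1.64 and -0.62). Of 14 genes for propionate breakdown 4 were higher, nhr-114, acdh-1, hphd-1 (2.92 and 0.55) and hach-1 (2.05 and 0.47), the last 3 being enzymes of the propionate shunt. acdh-1 had 326, 303, 293 and 374 FPKM in EMBRYO TM, against 0.565, 0.584, 0.739 and 0.645 FPKM in EMBRYO CNT, and 34.8, 31.1, 33.4 and 38.9 FPKM in L4 TM, against 22.4, 24.8, 22.6 and 23.4 FPKM in L4 CNT. Both groups of TM libraries were above their controls, but the gap was far wider in EMBRYO, where the control level was under 1 FPKM.

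Autophagy genes that moved were mostly lower, and lysosome genes were split. Of 29 autophagy genes, 5 were lower and 1 was higher at both stages, beside 6.5% and 8.95% of all genes, with medians of -0.32 and -0.07. sqst-1, the p62 receptor that autophagy itself consumes, had 68.7, 67.8, 73.2 and 49.5 FPKM in EMBRYO TM, against 139.8, 128, 122 and 121 FPKM in EMBRYO CNT, and 18.9, 19.05, 19.2 and 23.7 FPKM in L4 TM, against 53.9, 62.2, 56.1 and 54.5 FPKM in L4 CNT. It was lower in every TM library of each stage, with log2 fold changes of -0.98 in EMBRYO and -1.45 in L4 (standard error 0.11 at each stage, adjusted p = 2.19e-05). lgg-1 (-0.49 and -0.74) and lgg-2 (-0.49 and -0.69), the ubiquitin-like proteins of the autophagosome membrane, and atg-2 (-0.82 and -0.63), a lipid transfer protein, were lower too. lgg-1 is a case where the libraries overlapped in EMBRYO, and its call was lost in 8 of 28 alternatives. The higher gene was epg-3 (0.49 and 0.43), named after its value was seen. Of 75 lysosome genes, 11 were higher and 4 lower, while 18 passed in opposite directions, and 6 were higher under TPM or median-ratio rescaling. The lysosome medians were 0.51 in EMBRYO and -0.07 in L4. ctsa-4.2, a carboxypeptidase, was higher (1.36 and 0.66), and nuc-1 (-0.65 and -0.68), a DNase, hex-1 (-0.77 and -0.59), a hexosaminidase, and gba-3 (-1.13 and -0.65), a glucocerebrosidase homologue, were lower.

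The neuropeptide list had the largest share of lower genes of all 43 lists. Of 106 tested, 43 were lower at both stages, 9 of them more than 2-fold at each, and none was higher, beside 6.5% and 8.95% of all genes. The list medians were -1.07 in EMBRYO and -0.56 in L4, and at an unadjusted p under 0.05 at each stage 56 were lower and 0 higher. In whole worms FPKM is a share of all RNA, so less RNA of these genes and more RNA from other tissues cannot be told apart. By family, 20 of 30 FMRFamide-like (flp) genes, 20 of 56 neuropeptide-like (nlp) genes, 2 of 18 insulin-like (ins) genes and 1 of 2 pdf genes were lower. nlp-12 (M01D7.5, chromosome I, 1843353 to 1843969), a cholecystokinin-like peptide of the DVA neuron, had 75.1, 65.3, 74.4 and 59.1 FPKM in EMBRYO TM, against 191, 199.8, 227 and 195 FPKM in EMBRYO CNT, and 8.54, 8.17, 6.21 and 8.27 FPKM in L4 TM, against 21.2, 18.5, 22.3 and 20.4 FPKM in L4 CNT. TM and control libraries were apart at both stages, at -1.56 in EMBRYO and -1.3002 in L4 (standard error 0.10 at each stage, adjusted p = 7.15e-07). flp-15 (-1.76 and -1.23), nlp-43 (-1.67 and -1.15) and ins-17 (-1.08 and -1.13) followed.

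The enzymes that cut and trim neuropeptide precursors moved with them. egl-3 (C51E3.7, chromosome V, 10169177 to 10173753), the proprotein convertase, had 80.1, 75.6, 76.5 and 52.7 FPKM in EMBRYO TM, against 206, 213, 182 and 202 FPKM in EMBRYO CNT, and 10.97, 10.4, 10.7 and 7.95 FPKM in L4 TM, against 20.3, 19.98, 20.5 and 19.7 FPKM in L4 CNT. Every TM library was below the controls of its stage, at -1.499 in EMBRYO and -0.95 in L4 (standard error 0.12 at each stage, adjusted p = 6.11e-05). The other neuronal markers that were lower were egl-21 (-1.21 and -0.65), the carboxypeptidase E that acts next, sbt-1 (-1.35 and -0.81), the 7B2 helper of egl-3, ida-1 (-1.36 and -0.84), a dense core vesicle protein, and unc-64 (-0.40 and -0.62), a syntaxin, which made 5 of 16 tested and none higher. Among all genes 6.5% were lower and 8.95% higher at both stages. The summed level of the 16 markers ran from 479 to 522 FPKM in EMBRYO TM, against 950 to 1028 FPKM in EMBRYO CNT, and from 272 to 359 FPKM in L4 TM, against 336 to 400 FPKM in L4 CNT, so that the L4 ranges overlapped.

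Germline and oocyte markers that moved the same way at both stages were higher in TM. Among all genes 8.95% were higher and 6.5% lower. Of 26 germline markers, 8 were higher and none lower (medians 0.59 and 0.40), and their sum ran from 2529 to 4048 FPKM in EMBRYO TM, against 1757 to 2467 FPKM in EMBRYO CNT, and from 5701 to 5936 FPKM in L4 TM, against 4292 to 4430 FPKM in L4 CNT. glh-4, a Vasa-like helicase of germ granules, had 41.98, 47.3, 51.9 and 31.3 FPKM in EMBRYO TM, against 26.9, 18.7, 16.46 and 21.5 FPKM in EMBRYO CNT, and 58.4, 53.8, 57.5 and 51.9 FPKM in L4 TM, against 33.3, 28.6, 35.2 and 35.1 FPKM in L4 CNT. Its TM libraries were above the controls at both stages, at 1.01 in EMBRYO and 0.73 in L4 (standard error 0.15 at each stage, adjusted p = 0.00301). csr-1 (0.999 and 0.50), an Argonaute, cgh-1 (0.80 and 0.49), a DEAD-box helicase, and mex-5 (0.52 and 0.48), an RNA-binding protein, followed, with the calls of cgh-1 and mex-5 lost in 9 and 17 of 28 alternatives, and 16 markers were higher under median centring. Of 20 oocyte and eggshell genes, 6 were higher and none lower (0.36 and 0.39), such as egg-5 (0.52 and 0.68), puf-11 (0.62 and 0.44), egg-1 (0.44 and 0.39) and egg-4 (0.38 and 0.44), with the puf-11 call lost in 4 of 28 alternatives. The oocyte and eggshell sums overlapped at both stages. They ran from 3990 to 7380 FPKM in EMBRYO TM, against 4278 to 5720 FPKM in EMBRYO CNT. In L4 TM they ran from 7074 to 8358 FPKM, against 5994 to 7178 FPKM in L4 CNT. Of the sperm genes, 2 of 76 were higher, spe-39 (0.67 and 0.38), which also serves vesicle traffic in other cells, and spe-44 (0.49 and 0.29), and 1 was lower, spe-11 (-0.33 and -0.69), but the spe-44 and spe-11 calls were lost in 20 and 17 of 28 alternatives. The part of germline content in the changes of other lists was not tested.

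Among the remaining marker lists, 2 of 18 body wall muscle genes were lower, the paramyosin unc-15 (-1.59 and -0.74) and the myosin heavy chain unc-54 (-1.34 and -0.96, a call lost in 10 of 28 alternatives), and their summed level was 4029 to 5284 FPKM in EMBRYO TM against 8327 to 8834 FPKM in EMBRYO CNT, and 3578 to 4325 FPKM in L4 TM against 3604 to 4714 FPKM in L4 CNT. Of 14 intestine genes, 1 was higher, the peptide transporter pept-1 (2.60 and 0.51), and 4 went opposite ways. Beside these counts, 8.95% of all genes were higher and 6.5% lower at both stages. None of 9 pharynx genes, 14 hypodermis and seam genes or 6 vitellogenins moved the same way at both stages, although vit-1 was called higher at both when each stage was fitted alone and without EMBRYO TM replicate 4. At an unadjusted p under 0.05 at each stage 1 pharynx gene did, and 2 did by voom on recovered reads. The vitellogenins had log2 fold changes of 1.09 to 7.42 in EMBRYO and of -0.57 to 0.46 in L4.

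Regulators and detoxification genes split by family, beside 8.95% higher and 6.5% lower among all genes. Of 156 nuclear hormone receptors, 28 were lower and 3 higher (nhr-114, nhr-31 and nhr-23), with medians of -0.29 and -0.28. nhr-18 (-1.73 and -1.09), nhr-88 (-1.61 and -1.001) and nhr-19 (-0.90 and -1.197) are among the lower ones. Of 41 cytochrome P450 genes, 10 were lower and 2 higher (-0.24 and -0.46). cyp-32B1 (-1.47 and -2.51), cyp-13A10 (-1.002 and -0.88), cyp-13B1 (-1.55 and -0.83) and cyp-34A9 (-0.73 and -2.38) were lower. UDP-glucuronosyltransferases, which conjugate small molecules, went the other way by count, with 9 of 45 higher and 1 lower. Their list medians were 0.30 in EMBRYO and 0.01 in L4. After ugt-12 came ugt-47 (0.86 and 0.95), ugt-22 (2.49 and 0.85) and ugt-48 (1.101 and 0.70). Glutathione S-transferases had 2 of 35 higher, gst-4 (0.99 and 1.34) and gsto-1 (0.92 and 0.92), and 3 lower, of which gst-6 (-1.38 and -0.68) and gsto-3 (-1.26 and -0.59) are examples.

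Cuticle collagens had 21 of 148 genes higher and 2 lower, beside 8.95% and 6.5% of all genes. The list medians were 0.65 in EMBRYO and 0.004 in L4. The largest weaker effects were in col-137 (1.88 and 1.06), col-88 (3.43 and 1.06), col-138 (1.33 and 0.9996) and col-149 (3.52 and 0.89). The count was 35 without L4 TM replicate 4 and L4 CNT replicate 2 and 38 without L4 TM replicate 4 alone. Antimicrobial lists were small in their shared part. Of 85 C-type lectins, 3 were higher and 6 lower, with clec-265 at 1.51 and 0.62 and clec-82 at -1.71 and -1.42. In opposite directions passed 16 lectins, and the list medians were 0.50 in EMBRYO and -0.27 in L4. Of 81 lysozyme, saposin-like and infection response genes 3 were higher and 7 lower, with 13 lower without L4 TM replicate 4 and L4 CNT replicate 2.

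Position, length and protein domain were not used in the selection. Of the higher genes 6.29% lie on the X chromosome, and of the lower genes 20.4%, beside 13.6% of all genes tested. Chromosome V holds 17.02% of the higher and 25.6% of the lower genes, beside 18.3% of all. The median gene length in the deposited table was 1856.5 bases for the higher genes and 1091.5 for the lower genes, against 1218 for all. By the protein domain that the table gives, 22 of 105 genes with a Hormone_recep domain and 12 of 91 with an F-box were lower and none was higher, while 15 of 36 with an AAA domain, 15 of 43 with a DEAD domain and 9 of 21 with a UCH domain were higher and none was lower. These are descriptions, with no test, and among all genes tested 8.95% were higher and 6.5% lower.

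The levels of the response genes in the 4 groups are set side by side because the controls of the 2 stages of exposure differed in level. The median level of the 1240 higher genes was 31.1 FPKM in EMBRYO TM, against 20.8 FPKM in EMBRYO CNT, and 49.5 FPKM in L4 TM, against 37.3 FPKM in L4 CNT. That of the 900 lower genes was 10.1 FPKM in EMBRYO TM, against 20.8 FPKM in EMBRYO CNT, and 4.09 FPKM in L4 TM, against 8.04 FPKM in L4 CNT. In both sets the median of EMBRYO TM lay between those of the 2 control groups, and L4 TM lay beyond L4 CNT on the side away from EMBRYO CNT. The same order stood on the first principal component of all genes tested, with 69.0% of the variance, where the libraries ran from -42.1 to -31.2 in EMBRYO TM, from -88.8 to -84.7 in EMBRYO CNT, from 71.0 to 78.0 in L4 TM and from 51.2 to 56.4 in L4 CNT. EMBRYO CNT and L4 CNT serve both in the TM effects and in any comparison of the 2 controls, so no test was made, and the part of developmental progress in the shared response was not tested. sams-1 and cth-1 are members whose control levels differed little between stages, while folt-2 was at 11.01 ± 0.754 FPKM in L4 CNT and 0.577 ± 0.159 FPKM in EMBRYO CNT (SD, n = 4).

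**Figure D5:**
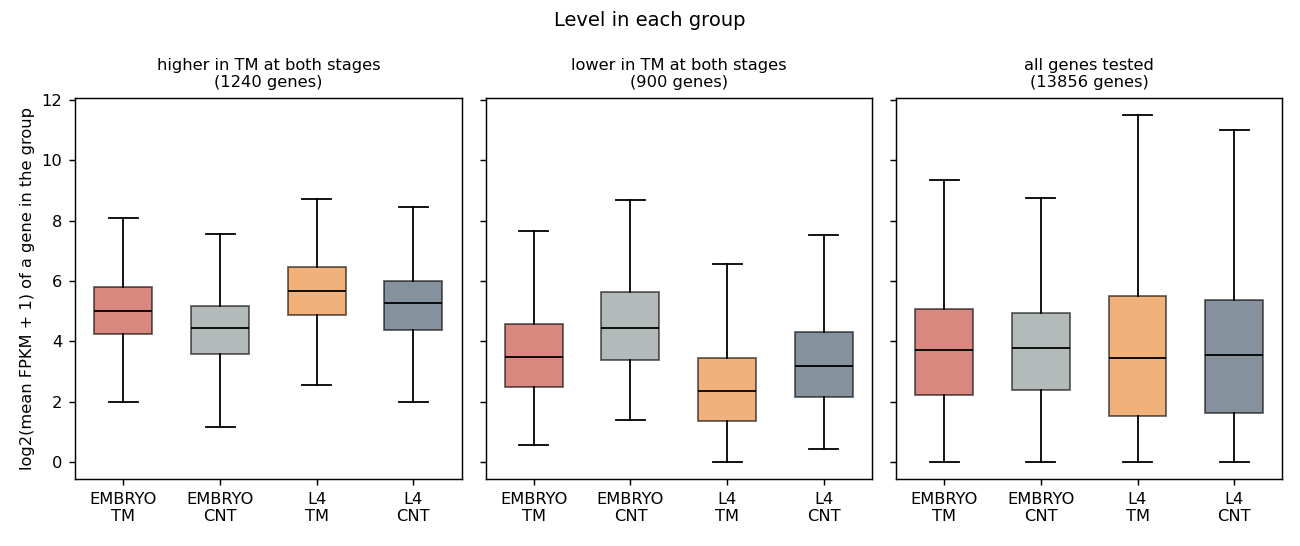
Level of each gene as log2(mean FPKM + 1) in the 4 groups, for the 1240 genes higher at both stages, the 900 lower at both and all 13856 tested. Boxes span the quartiles with the median as a line, and whiskers reach the last gene within 1.5 box lengths; the higher genes have their top median in L4 TM and the lower genes in EMBRYO CNT.

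An average of the 2 effects can rest on 1 stage. The average passed an adjusted p of 0.05 and 2-fold for 227 higher genes (1.64%) and 459 lower genes (3.31%). Of the 227, 120 moved the same way at both stages, 88 passed in EMBRYO alone, 2 in L4 alone, 9 in opposite directions, and 8 fell in none of these classes. Of the 459, 287 moved the same way, 133 passed in EMBRYO alone, 17 in L4 alone, and 22 fell in none. The largest averages that were not shared were vit-4 (7.42 and -0.02), vit-1 (6.63 and 0.46) and vit-3 (6.43 and -0.04) among the higher genes, and clx-1 (-7.11 and -0.07), dao-6 (-5.74 and -0.15) and F08H9.4 (-5.21 and 0.03), a small heat shock protein gene, among the lower. The last 3 had mean levels of 177, 162 and 44.5 FPKM in EMBRYO CNT and of under 1 FPKM in both L4 groups. In L4 none of the 3 passed the test on log2(FPKM + 1), while by voom on recovered reads clx-1 was lower in L4 TM, with a log2 fold change of -2.22 (adjusted p = 0.0435).

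Members stood close to the 2-fold line on both sides. On the higher side gpdh-1 (1.003 and 2.85), R03D7.2 (1.004 and 1.17) and C52D10.1 (1.01 and 1.78) were just inside, and col-138, gst-4 and C10C5.3 (1.04 and 0.97) just outside. On the lower side nhr-88, T28B8.1 (-1.53 and -1.001) and F12A10.1 (-1.70 and -1.001) were just inside, and F56H9.2 (-1.34 and -0.999), ttr-23 (-2.54 and -0.999) and flp-2 (-0.998 and -1.02) just outside.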

How the data were processed

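Polyadenylated RNA of whole N2 worms was sequenced in 16 libraries, 4 in each of EMBRYO TM, EMBRYO CNT, L4 TM and L4 CNT, grouped by the labels. The authors deposited FPKM values per gene. Reads were aligned with HISAT2 2.0.5 and counted per gene with featureCounts 1.5.0-p3. The submitters' notes also name StringTie 1.3.3b, DESeq2 and edgeR 3.22.5, and no source used here names the genome build. The 4 columns of group means were not used. Whether the counting used strand is not clear, so overlapping and antisense genes, and near-identical copies, are uncertain. Symbols came from the WBcel235 annotation for 46180 of 46589 genes.

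FPKM times gene length gave whole reads for 100% of values in each library, within 0.01 of a whole number. Log2(FPKM + 1) of the 13856 genes with a mean of at least 1 FPKM was fitted by limma 3.58.1 with a variance trend in R 4.3.3, with all 4 groups in one model, and p-values were adjusted over all genes by Benjamini-Hochberg. The average TM effect was called at an adjusted p under 0.05 and more than 2-fold. Fold changes on this scale understate low genes. Summaries and plots used Python 3.11.15, pandas 2.3.3 and matplotlib 3.10.9, and the fit was tested on simulated data.

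Chosen for naming were the 12 genes per direction with the largest weaker stage effect and no overlap of TM and CNT libraries, the listed UPR genes, vit-1 to vit-6, up to 4 shared members of each list, the 3 largest unshared averages per direction and 3 genes on each side of the 2-fold line per direction. Some chosen list members are counted but not printed, such as those of the prion-like, histone and glycolysis lists. Other printed genes lie outside this choice. Most of them are said to be named after their values were seen, and unc-64, nhr-31, nhr-23, algn-7 and hsp-6 lie outside it too. Calls of genes outside the choice were not followed through the alternatives. The members and lists were chosen with earlier results of these data known. Alternatives were other pseudocounts, filters, scalings, tests and sets of libraries. The labels do not say that the same replicate number in 2 groups marks paired samples. Same-numbered libraries had deviations correlated at r between -0.31 and 0.20. The highest r of a TM and a CNT library within a stage was 0.47, for L4 TM replicate 4 and L4 CNT replicate 2.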

Additional observations from a re-analysis of the deposited data

Results flagged for a closer look

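Across 45 named genes and 180 groups of 4 libraries, 20 values of a gene in a library stood far from the rest of their group, in 7 of the 16 libraries and 8 of them in L4 CNT replicate 2 (by Dixon's test at 95%, which flags about 1 in 20 groups by chance), and 22 genes had effects of TM that differed between stages by limma's interaction term. No explanation was weighed.

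The values are in FPKM. L4 CNT replicate 2 was apart for mtl-1 (6.72), xbp-1 (152), pmp-5 (6.58), crt-1 (362), dnj-27 (4.81), manf-1 (133), ZC443.3 (29.7) and cnx-1 (129). L4 TM replicate 4 was apart for K01A2.10 (1.13), T05E12.6 (37.3), ZC443.3 (8.60) and cnx-1 (169). EMBRYO TM replicate 4 was apart for manf-1 (124) and ZC443.3 (37.6), and EMBRYO TM replicate 3 for pgph-3 (5.30). EMBRYO CNT replicate 3 was apart for C08E3.13 (165), atf-6 (16.198) and enpl-1 (209), EMBRYO CNT replicate 4 for xbp-1 (128) and EMBRYO CNT replicate 1 for ZC443.3 (75.1).

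The L4 effect minus the EMBRYO effect, in log2 units, was below 0 for most of the 22 genes. Among the UPR genes it was -0.44 for pdi-6, -0.62 for dnj-7, -0.37 for hsp-4, -0.32 for pek-1, -0.43 for xbp-1 and -0.76 for atf-4, and above 0 for atf-6 (0.81), dnj-27 (0.60) and cnx-1 (0.45). Among the yolk protein genes it was -6.17 for vit-1, -1.66 for vit-2, -6.48 for vit-3, -7.44 for vit-4, -2.47 for vit-5 and -3.04 for vit-6. Among the strongest shared genes it was -3.38 for folt-2, -3.01 for T05E12.6, -2.02 for pmp-5, -0.84 for hrg-7, -0.84 for abhd-3.2, -1.41 for T23E7.6 and -0.70 for F45D3.4.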

How the results depend on the processing

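The counts of genes moved the same way at both stages were 1240 higher and 900 lower. Higher genes numbered 794 after TPM rescaling, of which 759 were shared with the 1240, and 1916 after median centring. With the replicate number as a block, 607 genes were higher, 606 of them among the 1240, and 639 were lower; the difference between stages passed for 296 shared genes in place of 558. The samples share only a number, so a call lost there is not read as a weaker effect. Leaving out each library in turn gave 901 to 1541 higher and 738 to 1063 lower genes, 43 to 49 and 98 to 113 for more than 2-fold at both stages, 215 to 236 and 427 to 484 for the average effect, and 407 to 745 for the difference between stages.

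For more than 2-fold at both stages, a filter at a mean of 5 FPKM gave 29 higher, a pseudocount of 0.1 gave 259 lower, a pseudocount of 5 gave 14 higher and 32 lower, and voom on recovered reads gave 299 lower. For the average effect, no fold threshold gave 4081 higher and 3813 lower, a pseudocount of 0.1 gave 911 lower, a pseudocount of 5 gave 103 higher and 154 lower, and voom gave 341 higher and 1080 lower. The cause of these shifts was not tested, apart from the pseudocount and threshold, which act on the scale itself.

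Signs turned in genes with small main L4 or average effects. The L4 effect of vit-4 was 0.083 after median centring and ran from -0.072 to 0.039 with 1 library left out, and it was 0.0071 without L4 TM replicate 4 and L4 CNT replicate 2 (chosen after the data were seen). After median centring, the L4 effects of clx-1 and vit-3 were 0.028 and 0.059 and the average effect of dnj-27 was 0.036. The L4 effect of clx-1 was -0.57 at a pseudocount of 0.1 and -2.22 by voom, where it passed the test (adjusted p = 0.0435; 0.181 to 0.888 under the other alternatives). The L4 effect of F08H9.4 was -0.13 at a pseudocount of 0.1 and -0.86 by voom, and ran from -0.098 to 0.19 with libraries left out. That of crt-1 ran from -0.034 to 0.26. Of 162 genes chosen for naming and called at both stages, 120 were called under every alternative that tested them.

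Groups of 4 limit the precision, and for genes under 1 FPKM in a control group the log2(FPKM + 1) scale leaves little range for a fall.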
